A study of Mus musculus with 4 samples.

Results

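Narrow distal H3K9ac sites are short stretches of chromatin, away from known transcription start sites (TSSs), that carried many tags of acetylated histone H3 lysine 9 in mouse embryonic stem (mES) cells. Their members were selected on the H3K9ac and input libraries themselves. Chromosomes 1 to 19 were divided into fixed bins of 1 kb, and bins with 40 or more H3K9ac tags and 15 or fewer input tags were kept where they lay more than 5 kb from the TSS of any annotated transcript. Kept bins at most 1 kb apart were joined, and runs of 2 kb or less were retained. Of 2472334 bins, 59980 had 40 or more H3K9ac tags, 44354 of these had 15 or fewer input tags, and 13754 were distal. They formed 9631 runs, of which 1115 were longer than 2 kb and 8516 were retained as narrow distal sites, 7312 of a single bin and 1204 of 2 bins. The TSS filter preceded the joining, and 382 sites (4.49%) would otherwise have been joined to a bin nearer to a TSS. Joining before that filter gave 8134 sites. The bin with the most H3K9ac tags, here the peak bin, stands for each site below.

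The study mapped H3K9ac and H3K14ac by chromatin immunoprecipitation followed by sequencing (ChIP-seq). It holds 4 libraries, with 1 each for the rabbit polyclonal antibody ab4441 against H3K9ac, the mouse monoclonal antibody 13HH3-1A5 (13HH3) against H3K14ac, the antibody 7G8 against H3K14ac, and input DNA. All of them came from wild type mES cells that the labels call E14, of strain 129P2/OlaHsd, whereas the methods describe cells derived from blastocysts, which were grown on feeder cells and then passaged without them. The deposited libraries held between 19313927 and 23839094 tags, and no library has a replicate, so that no p-value is given and every interval is a 95% interval that covers counting error only. Tags without molecular identifiers are not independent molecules.

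Acetylation of lysines in the tail of H3 is laid down by histone acetyltransferases such as GCN5, PCAF and the MYST family, is removed by histone deacetylases, and is bound by bromodomain proteins. H3K9ac and H3K14ac are best known from the nucleosomes beside active promoters, and are also found at enhancers, the distal elements that bind transcription factors and act on promoters from afar. In mES cells, enhancers of genes such as Pou5f1, Sox2, Nanog and Klf4 are bound by the transcription factors of pluripotency. The label of the cells was checked at promoters of marker genes. Within 1 kb on each side of the TSS, 26 pluripotency genes had a median of 152 H3K9ac tags, from 44 at Gbx2 to 276 at Zscan10, and 22 of them lay at or above the median of 90 over all 21281 protein-coding genes. The 18 markers of feeder fibroblasts had a median of 61 tags, from 6 at Lum to 150 at Fn1, and 5 of 18 lay at or above the median of all genes. The part of feeder cells in any result was not tested.

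To show what such sites look like in sequence, 300 bases around the median H3K9ac tag are printed for 8 members, named by their nearest protein-coding gene. They are the member near Mga and the member near Arhgef17, both among the 5 with the most 13HH3 tags after subtraction of the surrounding mean. Others are the members with the most H3K9ac near the pluripotency genes Pou5f1, Sox2 and Prdm14. Also printed are 1 of 2 members with equal H3K9ac near Klf4 and a member near the endoderm gene Sox17. A member near BC096441 stands for those without H3K14ac over their surroundings. The letters are the plus strand of mm9 (NCBIM37), and capitals mark the letters of CACGTG (an E-box) at Mga, Pou5f1 and Prdm14, TGACTCA (AP-1) on the minus strand at Arhgef17, Sox17 and BC096441, TCAAGGTCA (Esrrb) on the minus strand at BC096441, and GGGTGTGG (Klf) on the minus strand and GCGCATGCG (Nrf1) on both strands at Klf4. No searched motif lies in the window at Sox2.
Mga (chr2:119698336-119698635): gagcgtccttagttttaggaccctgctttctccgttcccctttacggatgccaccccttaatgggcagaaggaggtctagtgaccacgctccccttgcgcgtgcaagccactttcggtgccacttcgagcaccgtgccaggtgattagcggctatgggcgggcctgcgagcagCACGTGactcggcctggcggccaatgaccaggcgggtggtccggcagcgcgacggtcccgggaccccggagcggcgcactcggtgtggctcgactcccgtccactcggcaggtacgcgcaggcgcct
Arhgef17 (chr7:108092302-108092601): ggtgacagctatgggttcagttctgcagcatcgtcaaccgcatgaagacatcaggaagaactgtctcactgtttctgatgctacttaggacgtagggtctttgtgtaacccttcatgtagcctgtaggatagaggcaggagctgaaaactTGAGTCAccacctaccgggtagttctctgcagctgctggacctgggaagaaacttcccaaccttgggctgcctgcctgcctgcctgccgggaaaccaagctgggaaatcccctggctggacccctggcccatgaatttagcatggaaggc
Pou5f1 (chr17:35627209-35627508): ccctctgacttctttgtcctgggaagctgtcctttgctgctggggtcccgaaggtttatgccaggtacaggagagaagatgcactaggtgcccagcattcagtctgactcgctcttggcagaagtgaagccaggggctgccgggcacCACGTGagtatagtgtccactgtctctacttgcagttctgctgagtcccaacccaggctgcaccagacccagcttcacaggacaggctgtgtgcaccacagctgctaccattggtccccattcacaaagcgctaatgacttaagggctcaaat
Sox2 (chr3:34604366-34604665): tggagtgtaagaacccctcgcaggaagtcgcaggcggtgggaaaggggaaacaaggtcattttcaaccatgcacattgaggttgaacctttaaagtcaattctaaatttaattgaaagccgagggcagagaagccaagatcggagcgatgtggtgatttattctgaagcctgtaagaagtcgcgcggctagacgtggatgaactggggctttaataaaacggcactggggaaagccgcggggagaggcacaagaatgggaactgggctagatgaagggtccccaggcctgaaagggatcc
Klf4 (chr4:55527762-55528061): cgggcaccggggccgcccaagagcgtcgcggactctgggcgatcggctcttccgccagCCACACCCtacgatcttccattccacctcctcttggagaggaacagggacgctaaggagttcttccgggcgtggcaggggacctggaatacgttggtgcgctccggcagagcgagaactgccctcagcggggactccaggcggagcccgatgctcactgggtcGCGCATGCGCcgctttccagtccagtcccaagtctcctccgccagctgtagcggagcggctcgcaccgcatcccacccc
Prdm14 (chr1:13095036-13095335): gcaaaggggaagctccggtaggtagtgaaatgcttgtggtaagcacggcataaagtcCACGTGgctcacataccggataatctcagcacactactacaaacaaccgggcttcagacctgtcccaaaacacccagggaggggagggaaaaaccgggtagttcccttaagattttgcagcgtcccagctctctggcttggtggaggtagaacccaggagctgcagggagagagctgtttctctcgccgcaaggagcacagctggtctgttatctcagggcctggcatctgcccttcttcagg
Sox17 (chr1:4561596-4561895): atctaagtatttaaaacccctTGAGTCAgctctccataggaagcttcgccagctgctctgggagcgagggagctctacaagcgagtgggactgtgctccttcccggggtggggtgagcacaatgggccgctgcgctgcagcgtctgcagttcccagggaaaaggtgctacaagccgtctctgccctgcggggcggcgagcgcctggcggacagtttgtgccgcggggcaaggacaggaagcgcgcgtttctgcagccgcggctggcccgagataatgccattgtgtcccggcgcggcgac
BC096441 (chr11:69528326-69528625): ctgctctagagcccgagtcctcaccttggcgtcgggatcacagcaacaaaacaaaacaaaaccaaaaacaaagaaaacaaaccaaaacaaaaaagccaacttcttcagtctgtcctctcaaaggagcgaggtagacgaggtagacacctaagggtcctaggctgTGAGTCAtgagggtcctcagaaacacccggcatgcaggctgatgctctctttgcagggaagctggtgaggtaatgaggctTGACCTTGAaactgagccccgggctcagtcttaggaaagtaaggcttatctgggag
These windows differed in base composition, with 31 CpGs and 66.3% G or C at Mga, 29 CpGs and 67.3% at Klf4, 25 CpGs and 63.7% at Sox17, but 5 CpGs and 54% at Arhgef17, 5 CpGs and 55.3% at Pou5f1, and 7 CpGs and 50% at BC096441.

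Both antibodies against H3K14ac had a peak at the narrow distal sites. When the sites were aligned at their median H3K9ac tag, the average profile, expressed relative to its ends at 5 kb, reached 3.94 for H3K9ac, 2.34 for 13HH3 and 2.38 for 7G8, against 1.26 for input. The peaks of H3K9ac, 13HH3 and 7G8 each had a width of 600 bp at 0.5 of their height over the ends. At 1 kb from the centre the 3 acetylation profiles had come down to between 1.06 and 1.1, so that the H3K14ac tags were as narrowly placed as the H3K9ac tags. The height and place of the H3K9ac peak follow from the selection, whereas the H3K14ac libraries played no part in it. The selection also limits the width of the H3K9ac peak, since only runs of 2 kb or less were retained.

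**Figure D1:**
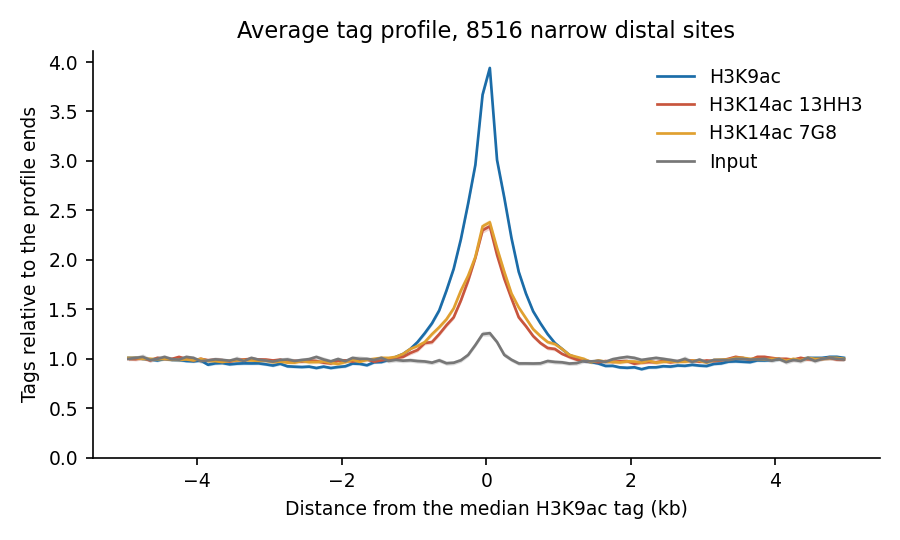
Average tag profile of the 4 libraries around the median H3K9ac tag of the 8516 narrow distal sites, in windows of 100 bp; the vertical axis gives tags relative to the profile's own ends and the shading the 95% counting interval. H3K9ac reached 3.94, 13HH3 2.34, 7G8 2.38 and input 1.26.

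In the peak bin, H3K9ac had a median of 48 tags (lowest 40, highest 194) and input had a median of 11. 13HH3 had a median of 25 tags (lowest 2, highest 122), and 7G8 also had a median of 25 (lowest 3, highest 99). The 1688907 distal bins with 1 to 15 input tags, which serve as the background, had medians of 7 tags for both 13HH3 and input, 9 for 7G8 and 6 for H3K9ac. The surroundings of the sites were richer than these bins as well. In the flanks, the bins 3 to 10 kb away on both sides, the median over sites was 14.4 tags per kb for 13HH3, 13.8 for 7G8 and 18.9 for H3K9ac. Pooled over all sites, the peak bins held 1.76 times the 13HH3 tags of their flanks (1.76 to 1.77), 1.82 times the 7G8 tags (1.82 to 1.83) and 1.04 times the input tags (1.03 to 1.05). The rule admitted only bins with at most 15 input tags, which holds the input ratio down, so that it is no control for the other ratios.

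H3K14ac stands here for tags of 13HH3 or 7G8. The study lists no peptide with acetylated H3K9 among those tested with 13HH3, and does not describe 7G8. Cross-reaction with H3K9ac was not tested here. A site was counted as carrying H3K14ac where its tags, plus a pseudocount of 1, were at least 2 times the flank mean plus 1. By 13HH3 this held at 2959 of 8516 sites (34.7%, exact binomial interval 33.7 to 35.8), against 7.36% of all distal bins. By 7G8 it held at 3097 sites (36.4%, 35.3 to 37.4), against 5.76% of all distal bins. Both antibodies did so at 1907 sites (22.4%, 21.5 to 23.3), against 2.43% of bins. The shares of sites thus lay far above the background. For input, the same count gave 193 sites (2.27%), below its 4.07% of all distal bins, a comparison that the upper limit on input tags shapes. A further 1052 sites passed by 13HH3 alone and 1190 by 7G8 alone, and 4367 (51.3%) passed by neither. At 251 sites (2.95%) neither library exceeded its flank mean. The like share of all distal bins was not counted, although their median fold lay below the flanks in each library, at 0.925 for 13HH3 and 0.96 for 7G8. The median fold over flanks of all sites was 1.67 for 13HH3 and 1.74 for 7G8, against 0.925 and 0.96 over all distal bins. Across the 8516 sites, the log2 fold over flanks of 13HH3 and 7G8 correlated with Pearson's r = 0.59 and a Spearman coefficient of 0.57, and that of H3K9ac with r = 0.55 for 13HH3 and r = 0.64 for 7G8. On the scale of log2 tags, without flanks, the correlations were smaller, with r = 0.45 between 13HH3 and 7G8, r = 0.20 between H3K9ac and 13HH3, and r = 0.36 between H3K9ac and 7G8. These are descriptions across sites within single libraries, which share base composition and, for folds, the same flanks. The fold of input also correlated with that of 13HH3 (r = 0.33) and of 7G8 (r = 0.31).

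The sites with the most H3K9ac tags carried H3K14ac in both libraries. The site with the highest H3K9ac lay in an intron, 7.8 kb downstream of a TSS of Mapt, the gene of the microtubule-associated protein tau, with 194 H3K9ac, 82 13HH3, 88 7G8 and 12 input tags. Its 13HH3 tags were 2.8 times the flank mean (2.19 to 3.55) and its 7G8 tags 3.31 times (2.6 to 4.18). The site near Rnpepl1, an aminopeptidase-like gene, was second with 182 H3K9ac tags, and had the most 13HH3 tags of all sites, 122, beside 73 7G8 and 15 input tags. It overlaps an exon, and its 13HH3 tags were 7.75 times the flank mean (6.19 to 9.65). The next 3, near Sfxn3, Abt1 and Rps6ka1, were intergenic and had 163, 161 and 157 H3K9ac tags. Among these 5 the antibodies differed most at Abt1, where 7G8 had 99 tags, the most of any site, and 13HH3 had 29 tags, 2.61 times its flank mean (1.7 to 3.87) against 6.31 times for 7G8 (4.95 to 7.99).

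High H3K14ac was also found outside the 5 sites with the most H3K9ac, at sites with 49 to 141 H3K9ac tags. These sites were picked from the 5 with the most 13HH3 or the most 7G8 tags after subtraction of the flank mean. Their high folds over flanks therefore follow from the choice. At Wdr20a, 12.7 kb upstream of the gene, 13HH3 had 92 tags and 7G8 had 59, more than the 49 tags of H3K9ac, with 14 tags of input. At Zbtb20, the gene of a zinc finger repressor, an intronic site had 86 tags of 13HH3, 63 of H3K9ac and 37 of 7G8, with 4 of input. At both sites the 13HH3 tags stood more than 6 times above the flank mean, at 8.56 (6.57 to 11.1) and 6.37 (4.9 to 8.22). The CpG-rich site near Mga, the gene of a MAX-binding transcription factor, had 119 H3K9ac, 85 13HH3, 47 7G8 and 10 input tags, the last at 2.32 times their flanks (1.06 to 4.53), and it is the printed sequence with the E-box among 31 CpGs. The site in an intron near Arhgef17, with 12 CpGs in its peak bin, had 141 H3K9ac, 117 13HH3, 87 7G8 and 12 input tags. The site near Boll, a gene of germ cell RNA binding, needs care: its 58 7G8 tags were 16 times the flank mean (10.9 to 23.4) and its 44 13HH3 tags 13.3 times (8.7 to 20.2), but its 15 input tags were also 5.85 times theirs (3.01 to 10.8). The part of input in the Boll values was not tested.

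The share of sites with H3K14ac was larger at sites with more H3K9ac. Of the 2925 sites with 40 to 44 H3K9ac tags, 28.8% passed by 13HH3 and 27.7% by 7G8. Of the 1350 sites with 60 to 79 tags, 42.8% and 49.9% passed. Of the 407 sites with 80 or more, 62.4% and 74% passed. Just outside the selection, among 4398 distal bins with 35 to 39 H3K9ac tags, at most 15 input tags and no bin of 40 or more within 2 kb, 27.7% passed by 13HH3 and 25.7% by 7G8, so that the shares did not jump at the threshold.

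The sites lay nearer to genes than distal bins in general, although all were more than 5 kb from a TSS. The median distance to the nearest TSS of a protein-coding gene was 18.4 kb, against 75 kb for all distal bins, and 44.6% of sites lay upstream of that gene. Sites in introns made up 48.1% (47 to 49.2) against 35% of bins, coding exons 3.57% against 0.684%, other exons 2.47% against 0.966%, and intergenic sequence 45.9% against 63.3%. Intergenic sites passed more often than intronic ones, with 39.7% against 29.4% by 13HH3 and 43.1% against 30.6% by 7G8. Their tags were much alike, with medians of 24 and 26 for 13HH3 and of 25 and 25 for 7G8, while the flanks of intronic sites were higher, with 15.8 against 13.4 tags per kb for 13HH3. In coding exons 45.7% passed by 13HH3 and 32.6% by 7G8, with a median of 13 input tags.

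The share with H3K14ac was larger the farther a site lay from a gene. At 5 to 10 kb, 25.5% of 2186 sites passed by 13HH3 and 25.7% by 7G8. At 20 to 50 kb it was 38.2% and 40.2% of 2406 sites. At more than 200 kb it was 67.5% and 65% of 117 sites. The tags in the peak bin changed little at these 3 distances. Their medians were 23, 26 and 26 for 13HH3, and 24, 26 and 23, with no steady rise, for 7G8. The flanks became poorer, with 15.1, 14.2 and 10.1 tags per kb for 13HH3. All distal bins ran the same way, from 4.66% by 13HH3 and 3.51% by 7G8 at 5 to 10 kb to 8.89% and 7% beyond 200 kb. With flank bins within 5 kb of a TSS left out, the shares at 5 to 10 kb were 29.3% and 33.3%, and those beyond 200 kb were 66.7% and 64.1%. Measured against scaled input in the same bin instead of flanks, the shares were 47% and 38.8% at 5 to 10 kb and 65% and 53% beyond 200 kb.

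**Figure D2:**
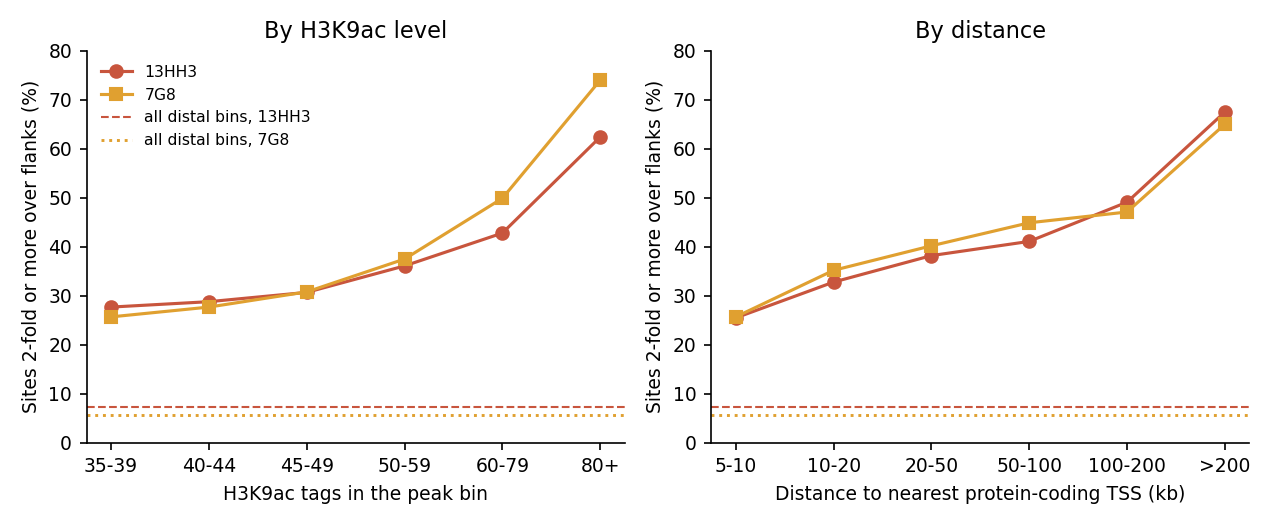
Share of sites (in percent) with 13HH3 or 7G8 at least 2 times the flanks, by H3K9ac tags in the peak bin (left, where 35-39 is just outside the selection) and by distance to the nearest protein-coding TSS in kb (right). The dashed and dotted lines are the shares of all distal bins, 7.36% and 5.76%, and every class of sites lies above them, up to 74% by 7G8 at 80 or more H3K9ac tags.

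Narrow distal sites were rich in CpG, though less so than sites at promoters. They had a median of 17 CpGs per kb and 49.5% G or C, against 6 and 40.8% in all distal bins, and 33 and 53.6% in the 11640 narrow runs of H3K9ac within 5 kb of a TSS. A window of 200 bp that met the usual criteria of a CpG island (G and C of 0.5 or more, observed over expected CpG of 0.6 or more) was present in 34.9% of sites (33.9 to 35.9), in 4.52% of all distal bins and in 68.6% of the runs near a TSS. Sites with such a window passed at 39.5% by 13HH3 and 40.2% by 7G8, and those without at 32.2% and 34.3%. The log2 fold over flanks correlated only weakly with CpGs per kb (r = 0.13 for 13HH3 and 0.05 for 7G8 over 8516 sites), against r = 0.31 for H3K9ac, on which the sites were selected. On the scale of log2 tags the values were 0.05 for 13HH3, -0.08 for 7G8 and 0.24 for H3K9ac.

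Sites stood above the background at every base composition and input level examined. In bins with under 45% G or C, 24.9% of 1288 sites passed by 13HH3 and 33.1% by 7G8, against 6.11% and 5.4% of bins. At 55% and more the shares were 38.7% and 30.1% of 1043 sites against 14.5% and 8.72% of bins, so that the order of the 2 antibodies changed between these strata. With 30 or more CpGs per kb, 43.5% and 40.7% of 1041 sites passed, against 13.9% and 10.6% of bins. With 1 to 5 input tags, 30.7% and 33.8% of 698 sites passed against 4.47% and 3.69% of bins, and with 11 to 15 input tags 37.1% and 38% of 4464 sites against 10.8% and 8.28%.

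Letters of several transcription factor motifs were more frequent in the peak bins than in distal bins, and how far these differences held among bins of like base composition varied with the motif and the stratum. Both strands were searched for exact letters. The letters AGGGGGCGC, a core of the motif of CTCF, the insulator protein that anchors chromatin loops, were in 113 sites (1.33%, 1.09 to 1.59) against 0.13% of bins, and at 50 to 55% G or C in 1.6% of sites against 0.757% of bins. GCGCATGCG, of the CpG-rich promoter factor Nrf1, was in 0.881% against 0.117%, at 50 to 55% G or C in 1.46% against 0.442%, and above that in 0.863% against 0.735%. TGACTCA, of the Fos and Jun dimer AP-1, was in 19.9% against 15.2%, and TCAAGGTCA, of the orphan receptor Esrrb, in 3.76% against 2.1%. GGGTGTGG, of the Klf family, was in 11.4% against 5.52%. Below 45% G or C it was in 8.54% against 4.31%, and at 50 to 55% in 12.9% against 12.3%. Below 45% the AP-1 letters were in 21.2% against 14.8% and the Esrrb letters in 4.66% against 1.92%, and at 50 to 55% in 20% against 16.4% and 3.86% against 2.77%. The letters CACGTG, the E-box of Myc, were in 15.9% against 8.69%, and at 50 to 55% G or C in 17.5% against 15.3%. TTCCNGGAA, of the Stat family, was in 3.52% against 2.54%. Other H3K9ac classes carried such letters too. In narrow runs near a TSS, the CTCF core letters were in 2.84%, the Nrf1 letters in 2.05% and the AP-1 letters in 14%. In distal runs over 2 kb these values were 0.987%, 1.35% and 21%. The strata were of G or C and not of CpG, which the CTCF core, Nrf1 and E-box letters contain.

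The motifs of the Oct and Sox factors were counted in the same way. The composite spelled CNTTGT, any base, then ATGCAAA was in only 4 sites (0.047%, 0.0128 to 0.12) against 0.0197% of bins. The octamer ATGCAAAT was in 4.74% of sites against 8.68% of bins. Below 45% G or C it was in 5.75% against 9.79%, at 45 to 50% in 5.72% against 5.08%, at 50 to 55% in 3.82% against 3.35%, and above that in 2.97% against 1.75%, so that it was more frequent in sites in 3 of 4 strata. The shorter core TTGTNATG, searched after the rarity of the composite had been seen, was in 11.2% against 16.5%. In these 4 strata it was in 16.5% against 17.8%, 12.6% against 12.3%, 9% against 9.33%, and 6.14% against 5.43%. The composite contains the core, and shares all letters of the octamer but its last, so that these counts overlap. Sites with a motif passed for H3K14ac at shares between 27.2% (Esrrb) and 38% (Stat) by 13HH3 among the motifs with 300 or more sites, and between 31.6% (Esrrb) and 39.3% (Stat) by 7G8. The 4418 sites with none of the motifs, the shorter Oct-Sox core aside, passed at 34.7% and 36.4%.

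On average, sites with the CTCF core carried H3K9ac on both sides of the motif and less on it. Their sequences are shown because the motif is the centre of this pattern. Of the 4 CTCF core sites with the most H3K9ac, the 3 intergenic ones are printed with 25 bases on each side of the motif in capitals (plus strand, mm9).
Ltbp4 (chr7:28070151-28070209): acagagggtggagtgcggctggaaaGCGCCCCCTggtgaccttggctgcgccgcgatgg
Apobec3 (chr15:79713844-79713902): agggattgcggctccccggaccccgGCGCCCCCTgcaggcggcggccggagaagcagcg
Atp6v0e (chr17:26800001-26800059): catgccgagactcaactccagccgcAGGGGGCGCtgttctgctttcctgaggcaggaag
At Ltbp4, 200 bp windows to the left of the CTCF core, on it and to its right held 34, 15 and 35 H3K9ac tags. At Apobec3 these windows held 27, 10 and 29 H3K9ac tags, and at Atp6v0e 9, 11 and 31, so that the last of these showed no dip. The remaining site of the 4, near Robo4, had the most H3K9ac tags of them, 120, and its windows held 38, 15 and 15, with no rise to the right of the motif. Averaged over the 112 CTCF core sites that could be centred, H3K9ac was 4.55 times the profile ends at 150 bp to the left (4.26 to 4.86) and 4.95 times at 150 bp to the right (4.65 to 5.27), but 2.18 times (1.98 to 2.39) and 2.24 times (2.04 to 2.46) at 50 bp to the left and right. 13HH3 followed with 1.62 and 2.01 at 150 bp against 1 and 1.19 at 50 bp. 7G8 followed with 2.28 and 2.41 against 1.48 and 1.29. Further maxima of H3K9ac stood at 350 bp, at 3.12 and 3.42. Input moved the same way, with 1.26 and 1.46 at 150 bp against 0.855 and 0.889 at 50 bp. The part of input in the pattern, that of the H3K14ac libraries included, was not tested. Around AP-1, the profile of H3K9ac was highest at 50 bp from the motif, at 2.63, with no dip. CTCF core sites passed at 21.2% by 13HH3 and 29.2% by 7G8, beside 34.7% and 36.4% of all sites.

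**Figure D3:**
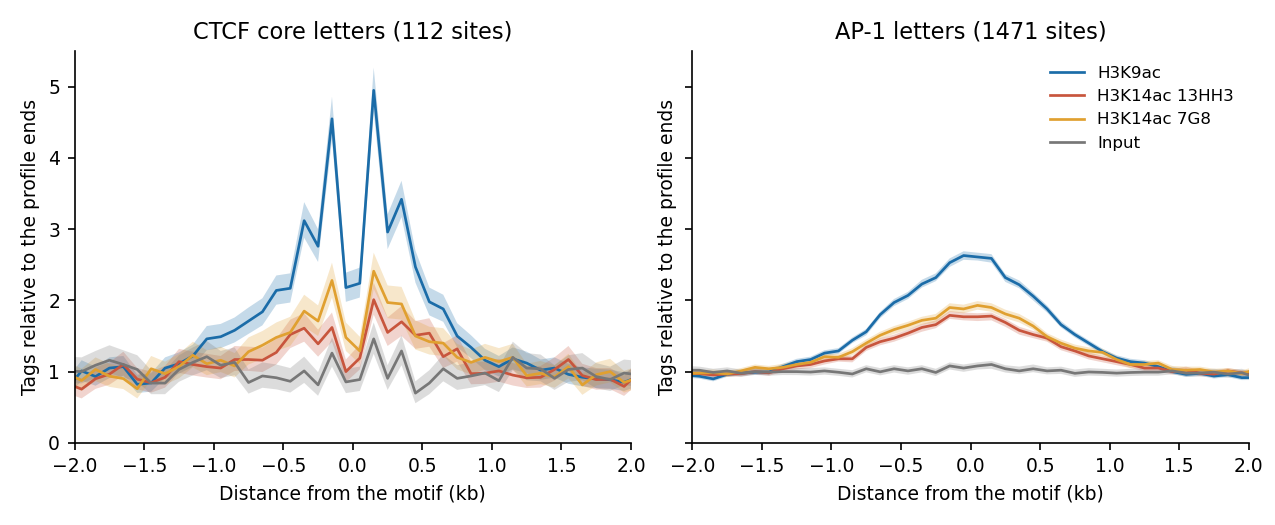
Average tags of the 4 libraries, relative to the profile ends, within 2 kb of the letters of the CTCF core (left, 112 sites) or AP-1 (right, 1471 sites), in windows of 100 bp with 95% counting intervals. H3K9ac has a maximum on each side of the CTCF core (4.55 and 4.95) and a minimum on it (2.18), and a single maximum of 2.63 at AP-1.

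Genes of the pluripotency network were often the nearest protein-coding gene of a narrow distal site. Of 26 listed pluripotency transcription factors, 24 (92.3%) were nearest to 1 or more sites and 17 to 2 or more, against 23.2% and 8.71% of all 21281 protein-coding genes. Of 25 genes of the LIF, BMP, Nodal, Fgf and Wnt pathways 21 (84%) had a site, of 24 genes of stem cell effectors and chromatin 11 (45.8%), of 24 lineage regulators 14 (58.3%), of 20 housekeeping genes 10 (50%), and of 18 feeder fibroblast markers 4 (22.2%). The lists were chosen with earlier results of these data known. Genes with long intergenic surroundings have more distal bins and so more room for sites. The median was 150 distal bins per gene for the pluripotency factors, against 20 over all genes. Per 1000 distal bins nearest to the gene, there were 14.6 sites (exact Poisson interval 11.7 to 18.1) for the pluripotency factors, 20.9 (15.6 to 27.3) for the signalling genes, 16.2 (11.3 to 22.6) for effectors and chromatin, 6.71 (3.84 to 10.9) for lineage regulators and 1.79 (0.489 to 4.59) for the fibroblast markers, against 5.04 over all genes. The housekeeping genes stood highest, with 62.3 (38.6 to 95.3), on 337 bins in all. These intervals take each site as independent, although sites gathered at single genes, with 16 at Sox2, 14 at Smad7 and 17 at Jarid2. For a comparison between lists of genes they are therefore too narrow. A nearest gene is a position and not a target.

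**Figure D4:**
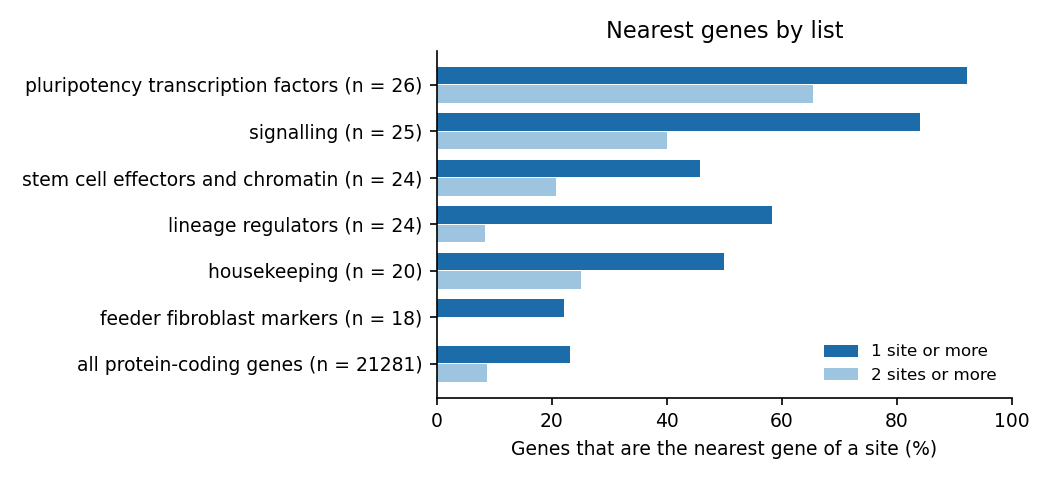
Share of the genes of each list (in percent) that are the nearest protein-coding gene of 1 or more, or of 2 or more, narrow distal sites. Pluripotency transcription factors stand at 92.3% and signalling genes at 84%, all protein-coding genes at 23.2%, and feeder fibroblast markers at 22.2%. The shares are not adjusted for the number of distal bins around each gene.

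The 86 sites of the pluripotency factors were not richer in H3K14ac than other sites. By 13HH3 22 of them passed (25.6%) and by 7G8 28 (32.6%), with 13 by both, beside 34.7%, 36.4% and 22.4% of all sites. Their medians over flanks were 1.56 and 1.58, and 60 of the 86 were intergenic. The site with the most H3K9ac near Pou5f1, the gene of the POU factor Oct4, lay 15.5 kb upstream and had 89 H3K9ac, 23 13HH3, 44 7G8 and 3 input tags. Its 7G8 tags were 5.06 times the flank mean (3.52 to 7.16) and its 13HH3 tags 2.71 times (1.66 to 4.23). A second Pou5f1 site 6.48 kb upstream had 46, 23, 21 and 8 tags in the same order of libraries, and neither antibody passed there (folds of 1.39 and 0.9).

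At Prdm14, a repressor of differentiation genes, 3 sites lay 21.7 to 41.7 kb downstream, and the strongest had 89 H3K9ac, 44 13HH3, 42 7G8 and 12 input tags. Its intervals over flanks were 2.08 to 4.06 for 13HH3 and 1.88 to 3.72 for 7G8. At Otx2, a homeobox gene of primed pluripotency and of the head, the strongest of 5 sites had 81 H3K9ac, 46 13HH3, 35 7G8 and 14 input tags, 60 CpGs in its peak bin, and 13HH3 at 3.32 times the flank mean (2.36 to 4.57), while input was 2.41 times its own (1.27 to 4.25). At Gbx2, a homeobox gene downstream of LIF, the only site had 57 H3K9ac, 40 13HH3, 32 7G8 and 14 input tags, and both antibodies passed. Klf4, a zinc finger factor of reprogramming, had a site 17.1 kb downstream with 57 H3K9ac but only 16 13HH3 and 23 7G8 tags, which neither antibody passed, and one 119 kb upstream with 57 H3K9ac, 34 13HH3 and 21 7G8 tags, which 13HH3 passed (2.43-fold). Sites near Nanog, the homeobox gene of the naive state, did not pass: 37 kb upstream there were 58 H3K9ac, 17 13HH3, 23 7G8 and 11 input tags, and 8.89 kb downstream 47, 16, 16 and 11. Here the flanks held 17.6 tags per kb of 13HH3 and 17.9 of 7G8 around the former, as many as in its peak bin for 13HH3. At Esrrb, the strongest of 3 intronic sites had 66 H3K9ac, 30 13HH3, 40 7G8 and 4 input tags, and at Zfp42, the gene of Rex1, an intronic site had 68, 19, 15 and 13 in flanks of 61.3 H3K9ac tags per kb. Zfp42 and Etv5, whose flanks held 70.4, are examples of sites in broadly acetylated surroundings: 1136 of the 8516 sites (13.3%) had less than 1.5 times the H3K9ac of their flanks.

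Sox2, the gene of the HMG-box partner of Oct4, had 16 sites, from 164 kb upstream to 434 kb downstream of its TSS. H3K9ac ran from 40 to 67 tags among them. The densest group lay 37.4 to 55.4 kb downstream, where 5 sites had between 41 and 67 H3K9ac, 20 and 40 13HH3, and 21 and 34 7G8 tags. The Sox2 site with the most H3K9ac, whose sequence is printed, is in this group, 55.4 kb downstream, with 67 H3K9ac, 40 13HH3, 21 7G8 and 8 input tags. The Sox2 site with the most 7G8 tags, 49, lay 94.4 kb downstream, beside 55 H3K9ac, 25 13HH3 and 6 input tags, and had only 3 CpGs. Of the 16, 3 passed by 13HH3 and 8 by 7G8, the former below and the latter above the 34.7% and 36.4% of all sites.

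**Figure D5:**
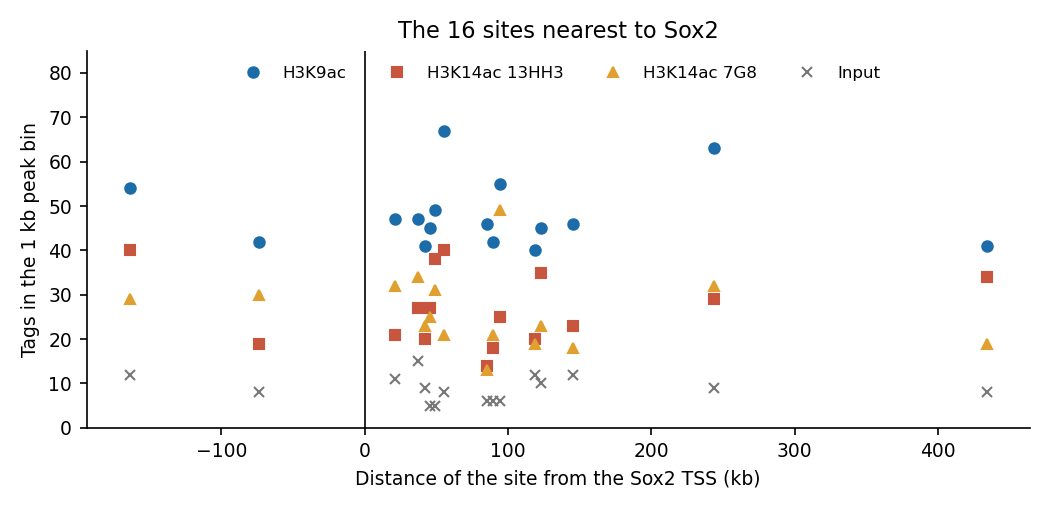
Tags of the 4 libraries in the peak bin of each of the 16 sites nearest to Sox2, by distance from the TSS in kb (negative is upstream). The H3K14ac libraries vary between 13 and 49 tags, while H3K9ac of at least 40 and input of at most 15 were set by the rule.

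Among the signalling genes 17 of 53 sites passed by 13HH3 (32.1%) and 16 by 7G8 (30.2%), near the 34.7% and 36.4% of all sites. Socs3, the feedback inhibitor of LIF and Stat3 signalling, had the site with the most H3K9ac of the list, with 118 H3K9ac, 38 13HH3, 40 7G8 and 9 input tags in rich flanks (1.56 and 1.89 times the flank means). Fgfr1, a receptor of fibroblast growth factors, had a site 47.6 kb upstream with 64 H3K9ac, 24 13HH3, 41 7G8 and 13 input tags, with 7G8 at 4.13 times its flanks (2.85 to 5.85) and input at 2.12 times (1.09 to 3.8). Dusp6, the phosphatase that limits ERK activity, had 62, 26, 38 and 12 tags at its strongest site, and Axin2, a target and inhibitor of Wnt signalling, 43, 42, 24 and 13, with 13HH3 at 3.88 times the flanks (2.7 to 5.47). The antibodies differed at Gab1, an adaptor of receptor signalling, where 103 H3K9ac tags went with 16 13HH3 tags (1.04 times the flanks, 0.583 to 1.72) and 38 7G8 tags (2.69 times, 1.86 to 3.81). At Bcl3, a target of Stat3, 68 13HH3 tags (4.07 times, 3.08 to 5.34) went with 27 7G8 tags (1.66 times, 1.07 to 2.47). How many of all sites differ in this way was not counted, and the intervals cover counting error only.

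Of the 35 sites of stem cell effectors and chromatin genes, 17 of which belong to Jarid2, 11 passed by 13HH3 (31.4%) and 8 by 7G8 (22.9%), beside 34.7% and 36.4% of all sites. Jarid2, a subunit of the Polycomb complex PRC2, had 17 sites over 346 kb, and the strongest had 86 H3K9ac, 54 13HH3, 48 7G8 and 12 input tags. Epcam, an epithelial adhesion molecule of mES cells, had a site 32.8 kb upstream with 64, 31, 35 and 14 tags, at which 13HH3 was 3.79 times (2.47 to 5.64) and 7G8 3.59 times (2.41 to 5.21) the flanks. Dppa3, a maternal factor that limits DNA methylation, had 68, 37, 27 and 15 tags at its strongest site. The sites at Trim28 and Mybl2 lay within 7 kb of the gene and below their own flanks in H3K9ac, with 58 tags against 84.8 per kb and 43 against 71.7.

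Lineage regulators, most of which are silent or low in mES cells, had 16 sites at 14 genes, mostly with 1 site each. They were the richest in CpG, with a median of 31.5 per kb against 17 for all sites, and 7 of 16 passed by each antibody (43.8%), 5 by both, beside 34.7%, 36.4% and 22.4% of all sites, a small number of sites to set against these shares. The site near Sox17, 75 kb upstream in sparse surroundings, had 71 H3K9ac, 25 13HH3, 27 7G8 and 15 input tags, which is 4.76 times the flank mean for 13HH3 (2.92 to 7.52) and 4.97 times for 7G8 (3.1 to 7.72). Input was also raised there, at 3.04 times its flanks (1.62 to 5.32). Pdx1, a regulator of pancreas, had 61, 30, 24 and 12 tags at an intronic site, and Myod1, a regulator of muscle, 45, 34, 20 and 11, with 13HH3 at 2.78 times the flanks (1.87 to 4.01). Sites near Neurog1 and Olig2, of the nervous system, had 51 and 49 H3K9ac tags, with 13HH3 at 1.64 times (1.02 to 2.52) and 1.68 times (1.02 to 2.64) the flanks. Of the 21 sites of housekeeping genes, 3 passed by 13HH3 (14.3%) and 4 by 7G8 (19%), beside 34.7% and 36.4% of all sites.

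The number of sites per gene varied. The 230 genes with 5 or more sites (1.08% of protein-coding genes) held 1455 sites (17.1%), and 29.5% of sites had another within 10 kb. Neither share was set against the length of distal sequence around each gene. Med13l, a subunit of the Mediator kinase module, had the most, 19 sites over 573 kb, with 40 to 94 H3K9ac tags, of which 6 passed by 13HH3 and 2 by 7G8. Jarid2 followed with 17 and Sox2 with 16, then Smad7, an inhibitor of TGF-beta signalling, with 14, of which 3 passed by each antibody. Ankrd11 and Gse1, both genes of chromatin cofactors, had 12 each, all of them intronic, of which 1 passed by 13HH3 at each gene and 2 and 1 by 7G8. The shares at these 6 genes were below those of all sites by both antibodies, except at Sox2 by 7G8, with 8 of 16.

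At the 251 sites where neither H3K14ac library exceeded its flank mean, the H3K9ac peak was itself shallow. Their median H3K9ac fold over flanks was 1.35, against 2.59 over all sites. Their flanks held 34.4 H3K9ac tags per kb, against 18.9 over all sites and 12.9 where both antibodies passed. Both groups were split by fold over flanks, which by itself tends to set their flanks apart. For 13HH3 the flanks held 19.3 and 11.2 tags per kb. The 5 with the most H3K9ac lay near BC096441, Tmprss12, Eif2d, 6430527G18Rik and Btn1a1, and all were intergenic. At BC096441, 109 H3K9ac tags, 2.01 times the flank mean, went with 21 13HH3, 22 7G8 and 10 input tags, which is 0.997 (0.609 to 1.55) and 0.954 (0.591 to 1.47) times the flanks for the H3K14ac libraries. At Tmprss12, 90 H3K9ac tags went with 11 13HH3, 15 7G8 and 15 input tags, and input was also lower than its flanks there (0.508 times, 0.282 to 0.847). At Eif2d, an initiation factor gene, 79 H3K9ac tags went with 9 13HH3 tags, 0.493 times the flank mean (0.223 to 0.949), and 3 input tags. Input was below its flanks at Eif2d too (0.436 times, 0.0886 to 1.31). It was 0.457 times its flanks at 6430527G18Rik and 0.381 times at Btn1a1, but 1.13 times at BC096441. The part of input in these values was not tested. All 5 sites were chosen for H3K14ac tags no higher than the flanks, so that their low folds follow from the choice.

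The shares with H3K14ac at narrow distal sites lay near those of other H3K9ac sites, but the classes were not alike in H3K9ac. Median H3K9ac tags in the peak bin were 48 at narrow distal sites, 70 at distal runs over 2 kb and 57 at narrow runs near a TSS. Their H3K9ac flanks held 18.9, 27.2 and 18.4 tags per kb. The shares were not compared at equal H3K9ac. Of the 1115 distal runs over 2 kb, 32.1% passed by 13HH3 (29.4 to 34.9) and 40.9% by 7G8 (38 to 43.8), and of the 11640 narrow runs within 5 kb of a TSS, 37.4% (36.5 to 38.3) and 39.3% (38.4 to 40.2). By 7G8 the interval of the narrow distal sites, 35.3 to 37.4, lay below those of both other classes. By 13HH3 it overlapped that of the broad runs and lay below that of the runs near a TSS. Pooled, the 13HH3 tags were 1.76 times the flanks at the narrow distal sites, 1.83 times at the broad runs and 1.81 times at the runs near a TSS, and the 7G8 tags were 1.82, 1.94 and 1.88 times.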

How the data were processed

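Reads (36 bases, single-end) had been placed on mm9 by the authors with ELAND. The deposited files list each mapped tag on a line of its own, so that the unit is raw tag counts without normalization. The deposited files of H3K9ac, 7G8 and input hold no repeat of a position and strand, and that of 13HH3 held 738711 (3.3%), which were counted once. Between 21626965 and 23839094 tags of each ChIP library and 19313927 of input were left. Chromosome ends were checked against NCBIM37, and 1 input tag lay past one. TSSs came from GENCODE vM1.

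A tag was counted 100 bp to the 3′ side of its 5′ end. Members and gene lists were chosen with earlier results of these data known. Flanks were bins 3 to 10 kb away on both sides, with a pseudocount of 1, and a fold of 2 or more was counted. Intervals are exact, binomial for shares and Poisson for counts and ratios. The background was all distal bins with 1 to 15 input tags. Motifs were exact letters in the peak bin.

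Sites were named by fixed rules. These took the 5 with the most H3K9ac, and the 5 each with the most 13HH3 and 7G8 tags minus the flank mean. They also took the 5 with the most H3K9ac where neither H3K14ac library exceeded its flanks. The strongest site of listed genes and the genes with the most sites completed them. Further sites near listed genes, and the CTCF core sites, were named after their values were seen. The code was tested on simulated data with known sites. Counting used Python 3.11.15 with numba 0.67.0, numpy 2.4.6 and pandas 2.3.3, intervals used scipy 1.17.1, and plots used matplotlib 3.10.9. Expression and other histone marks were not used here.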

Additional observations from a re-analysis of the deposited data

Results flagged for a closer look

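Chromosome X was outside the selection. The same rule applied to it gave 54 narrow distal H3K9ac sites, 5.09 per 10000 distal bins, with a median of 47.5 H3K9ac tags and 7 input tags. With input and H3K9ac exchanged in the rule, there were 0 such sites on chromosome X. Distal bins there had a median of 4 input tags, far below the minimum of the rule. A count of 0 was thus likely beforehand, and it is no control for the 54 sites. By 13HH3 26 of the 54 (48.1%) had at least 2 times their flanks, and by 7G8 38 (70.4%), beside 9.99% and 8.95% of the distal bins of chromosome X. Of the autosomal sites 34.7% and 36.4% did, with at most 46.2% and 47.9% on a single autosome. The autosomes ranged from 28.6 sites per 10000 distal bins on chromosome 3 to 108 on chromosome 11. Distal bins of chromosome X had a median of 4 input tags, against 7 on the autosomes, so that fixed tag thresholds are not alike on X and the autosomes.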

How the results depend on the processing

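No paired analysis was possible because each antibody has 1 library. The number of narrow distal sites was within 1.5 times of 8516 under 7 of 10 alternatives. It was 17746 with a minimum of 30 H3K9ac tags, 2347 with 60, and 4977 with at most 10 input tags. Of the share by 13HH3 (34.7%) and by 7G8 (36.4%), the values outside their intervals were, in that order, 30.6% and 29% with a minimum of 30 H3K9ac tags, 43.4% and 51.9% with 60, 29.4% and 31.8% with at most 10 input tags, 39% and 40% with no limit on input, and 38% and 40.1% at more than 10 kb from a TSS. They were 59.2% and 65.3% at a fold of 1.5 (18.4% and 17.1% of distal bins), 9.34% and 8.01% at a fold of 3 (1.31% and 0.806% of bins), 36.2% and 38.3% with a pseudocount of 0.5, and 52.5% and 43.6% against scaled input (9.51% and 12% of bins). Keeping repeated 13HH3 tags gave 36.4% by 13HH3. An alternative chosen after seeing the data, with flank bins within 5 kb of a TSS left out, gave 35.8% and 38.8%. The shares of sites exceeded those of distal bins under each alternative run. The causes of these shifts were not tested, beyond the changed thresholds themselves. Depth limits single sites: at Neurog1, 23 tags of 13HH3 at 1.64 times the flanks had an interval of 1.02 to 2.52. With 1 library per antibody, variation between cultures and immunoprecipitations is unknown.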
